A study of Mus musculus with 6 samples.

Results

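Kinesins are motor proteins that walk along microtubules by splitting ATP. One branch of the family builds and closes the mitotic spindle, and the genes of that branch are transcribed mainly in dividing cells. Another branch carries vesicles, organelles and ciliary cargo, and several of its members are known chiefly from neurons. The genes described here are those with a symbol made of Kif, a number and an optional letter, or of Kifc and a number, to which the transcript identifier of a gene probe mapped. The rule gave 38 genes of the 19747 with a symbol on the array, read by 55 of 39429 gene probes. By role, 10 are mitotic, 15 are transport kinesins, 6 act in cilia or in Hedgehog signalling, and 7 are others. No probe mapped to Kif14 or Kifc1, the other members of the mitotic list, which are not analysed here.

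RNA was measured on 6 one-colour Agilent arrays, 1 per sample and from 100 ng of RNA each. The soma group holds 3 samples of male gonadal somatic cells at E13.5 (days of embryonic development), from MCH x C57BL6/J animals with the Oct5<delta>PE-GFP transgene. ESC stands for 3 samples of the male embryonic stem cell line VR15, which carries the Vasa::RFP transgene. ESC is thus 1 cell line. For soma the labels name no sorted cell type and no number of animals per sample. What separates the replicates of a group is not given beyond the word biological, so p-values measure the spread between these samples.

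The Sertoli, stromal and pluripotency marker lists mostly went with the labelled cell types, while the endothelial and germ cell lists were mixed. All 10 Sertoli markers and all 10 interstitial and stromal markers were higher in soma, and 11 of 12 pluripotency markers were higher in ESC, the exception being Nanog. All 7 erythroid and all 7 macrophage markers tested were also higher in soma. Of 8 endothelial markers 2 rose in ESC, 4 fell and 2 did not pass the threshold below. Of 8 germ cell markers 3 rose, 2 fell and 3 did not pass. The 2 that fell were Dazl and Nanos2, the latter with log2 levels of -1.892, -1.042 and -0.415 on soma 1 to 3. Dazl, Ddx4, Dppa3, Mael and Sycp3 also rose at each step from soma 1 to 3, while Nanos3 and Kit did not. Whether the soma samples held germ cells in varying number was not tested. Pairs of arrays correlated across all genes tested with Pearson's r from 0.9937 to 0.9952 inside a group. Pairs from different groups had r from 0.7864 to 0.7996 (genes are no independent replicates). In such bulk samples, fewer cells of a type and less RNA per cell cannot be told apart. Soma 1 and 2 shared a slide, and soma 3 lay on the slide of the 3 ESC arrays. Each scan held arrays of 1 group, and so its effect cannot be told apart from that of the group. The number of arrays limits the precision.

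Levels below are log2 signals relative to the 75th percentile of the array's gene probes, so a level of 0 is at that percentile. Each level belongs to its probe, and levels of different genes are not compared. A summed level, given below for some lists, adds the unlogged signals of its genes and so mostly follows the brightest probes of the list. A difference is the ESC mean minus the soma mean of these log2 levels, from limma with its standard error (SE, n = 3 per group). A gene passed at a Benjamini-Hochberg adjusted p under 0.05 over all 19673 genes tested. Of these, 14202 had a symbol, and 5471 were entries with no symbol, each counted as a gene. Shares and medians over all genes tested include both kinds, while every kinesin has a symbol.

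Of the 38 kinesin genes, 34 were bright enough to be tested, and 32 of these were well above background on all 6 arrays. The exceptions, Kif6 and Kif26b, were so on all soma arrays and on only 1 and 2 ESC arrays. Of the 34 genes, 16 were higher in ESC, 15 were lower and 3 did not pass. That share is near the background, since 84.9% of all genes tested passed, 46.6% as higher in ESC and 38.3% as lower. At least 2-fold, 9 members were higher and 7 were lower, where 24.2% and 23.2% of all genes tested were so. The division by role was uneven. All 10 mitotic kinesins were higher in ESC, with a median difference of 1.20. Of 14 transport kinesins tested, 4 were higher, 8 were lower and 2 did not pass, with a median of -0.51. The median of all genes tested was 0.14. Against soma 3 alone, on the slide that held both groups, the counts of both classes were the same and the medians were 1.21 and -0.51. The mitotic and transport lists were drawn up with earlier results of these data known, and the difference between them was not tested.

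**Figure D1:**
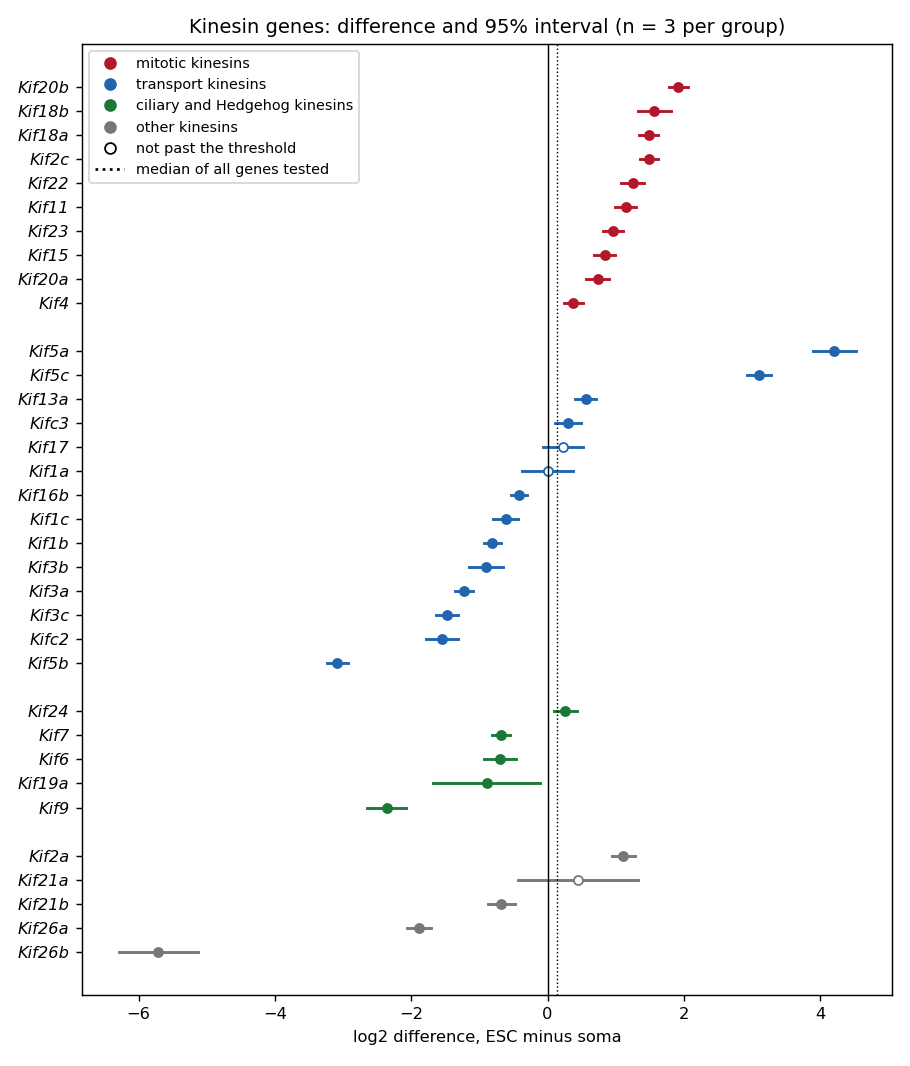
Log2 difference, ESC minus soma, with its 95% interval for each of the 34 kinesin genes tested, grouped by role (n = 3 arrays per group). Filled points passed the threshold and open points did not. All 10 mitotic kinesins lie to the right of 0, while transport kinesins run from -3.09 for Kif5b to 4.21 for Kif5a.

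The differences of the mitotic kinesins ran from 0.38 to 1.92. Kif11, the motor that pushes the spindle poles apart, stood at -0.45, -0.47 and -0.33 on soma 1 to 3 and at 0.78, 0.67 and 0.73 on ESC 1 to 3. The groups did not overlap, and Kif11 was 2.22-fold higher in ESC (log2 difference 1.15 ± 0.06, adjusted p 8.07e-06). Its partner in keeping the spindle bipolar, Kif15, rose by 0.84 ± 0.06. For all 10 mitotic kinesins every ESC array lay above every soma array, where 87.2% of all genes tested showed no overlap in one direction or the other.

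Among the motors that move and align chromosomes, Kif22, a chromokinesin that pushes chromosome arms, stood at 3.02, 3.02 and 2.87 on soma 1 to 3 and at 4.30, 4.15 and 4.22 on ESC 1 to 3. It was 2.38-fold higher in ESC (1.25 ± 0.07, adjusted p 9.91e-06), with a difference of 0.80 under quantile normalization. Kif18a, which damps the swinging of chromosomes at metaphase, rose by 1.49 ± 0.06, and its relative Kif18b, which trims astral microtubules, rose by 1.57 ± 0.10. Kif2c, which takes microtubules apart at faulty centromere attachments, was read by 2 probes. They gave nearly the same difference, 1.48 ± 0.05 and 1.45 ± 0.06.

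The other chromokinesin, Kif4, which serves chromosome condensation and the central spindle, changed least of the 10. It stood at -0.45, -0.47 and -0.56 on soma 1 to 3 and at -0.13, -0.16 and -0.06 on ESC 1 to 3. These groups are close but separate, with a difference of 0.38 ± 0.06 (adjusted p 0.000929). Under scaling to the spike-in RNA Kif4 differed by 0.16 and did not pass (adjusted p 0.169), which leaves 9 of the 10 higher under that scaling.

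The motors of cytokinesis included the member with the highest difference of the 10. Kif20b, which acts in the last separation of daughter cells, stood at 1.56, 1.51 and 1.53 on soma 1 to 3 and at 3.53, 3.39 and 3.44 on ESC 1 to 3. The spread within each group was small beside the gap, and Kif20b was 3.79-fold higher in ESC (1.92 ± 0.05, adjusted p 8.61e-07). Kif23, the motor of the centralspindlin complex, rose by 0.96 ± 0.06. Kif20a, which carries the chromosomal passenger complex to the midzone, rose by 0.74 ± 0.07, or 0.31 under quantile normalization. In the order of the differences, each neighbour's 95% interval overlapped the next, except that Kif4 lay apart below Kif20a.

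**Figure D2:**
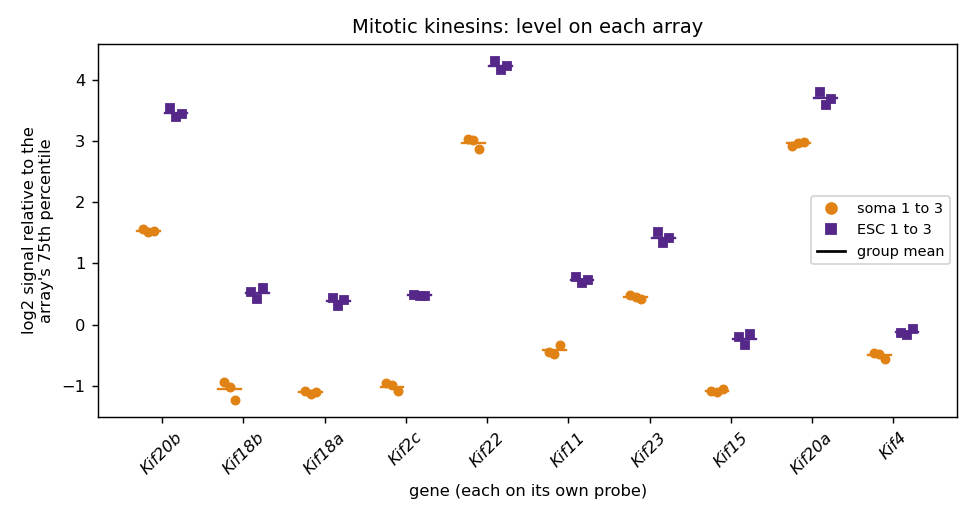
Level of each mitotic kinesin on each array, as log2 signal relative to the array's 75th percentile, with circles for soma 1 to 3, squares for ESC 1 to 3 and lines for group means. Every ESC array lies above every soma array in each of the 10 genes, with the widest gap in Kif20b and the narrowest in Kif4.

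The partners of these motors moved in the same direction for the most part. Among 28 spindle and midbody genes there were 24 higher in ESC and 1 lower, with 3 not past the threshold (median 1.23). Tpx2, the spindle assembly factor, rose by 1.18 ± 0.06, and Prc1, which bundles midzone microtubules and binds Kif4, by 0.78 ± 0.06. The highest differences of the list were those of the spindle gene Hmmr, 3.88-fold, and the checkpoint kinase gene Bub1, 3.49-fold. Numa1, a spindle pole protein gene, fell by 0.52 ± 0.06. The lowest rise past the threshold was that of the kinase gene Aurkb at 0.31 ± 0.05. Its probe was dim, with means of -4.18 in soma and -3.86 in ESC, not far above background.

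Cenpe encodes the centromere kinesin that carries chromosomes to the spindle equator. Its symbol falls outside the rule. Cenpe stood at 3.97, 3.87 and 3.83 on soma 1 to 3 and at 3.98, 3.95 and 3.95 on ESC 1 to 3. It differed by 0.07 ± 0.05 (adjusted p 0.258), under quantile normalization it was lower in ESC, at -0.43, and under scaling to the array median it was higher, at 0.27. Kifc5b, a close relative of Kifc1 that the rule also leaves out, was higher in ESC on 2 probes, by 1.23 ± 0.25 and 1.12 ± 0.08. Whether these probes also read Kifc1 RNA was not tested.

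Markers of proliferation moved with the mitotic kinesins, and their part in the result was not tested. The list of 18 genes also holds regulator genes, such as Lin9 and Lin54, which are not markers in the strict sense. Of the 18, 16 were higher, 1 was lower and 1 did not pass, with a median of 1.19. On a log2 scale, the summed level of the 18 ran from 6.95 to 6.96 on the soma arrays and from 8.31 to 8.42 on the ESC arrays. The sum over the 10 mitotic kinesins ran from 4.51 to 4.55 and from 5.64 to 5.80. Top2a rose by 1.16 ± 0.07 and Cdc20 by 1.78 ± 0.05 (1.17 under quantile normalization). The nucleotide enzyme gene Tyms rose by 0.38 ± 0.07. Mki67, the gene of the Ki-67 antigen, went the other way and fell by 0.35 ± 0.04.

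Many genes of the G2 and M phases share a promoter element called the cell cycle genes homology region (CHR), often placed near a CCAAT box. It is bound by the MuvB complex, which works with the product of Mybl2 or Foxm1. Promoters were searched for TTTGAA, the CHR core, and for CCAAT, on both strands, from 250 bases before to 50 bases after the gene's start. Windows from RefSeq on GRCm38.p6 matched 30 of the 38 genes by symbol. TTTGAA was present in 8 of 9 mitotic kinesin genes (88.9%) and in 1 of 10 transport kinesin genes (Kif1a). Of the ciliary and Hedgehog kinesin genes 1 of 5 (Kif27) held it, and of the others 1 of 6 (Kif26b), each along with CCAAT. In Kif26b, which was 52.5-fold lower in ESC, TTTGAA spans bases -9 to -4. TTTGAA was present in 20.2% of 27025 genes with a window, and in 17.9% of all 32851 windows. The mitotic exception was Kif18a. CCAAT was present in 5 of the 9 mitotic genes and 3 of the 10 transport genes, against 41.1% of all genes. Both motifs together were found in 5 of 9, 0 of 10 and 8.97%. The 2 motifs overlapped nowhere in these genes. The median GC content was 60.7% in mitotic windows, 68.2% in transport windows and 52.7% in all windows. Of the spindle and midbody partners, 15 of 25 genes with a window held TTTGAA, and of the proliferation markers 7 of 14 did. A match is a description of the letters and not evidence of binding.

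The bases just before the start are printed for 4 mitotic kinesins whose TTTGAA lies there and for 2 transport kinesins that moved in opposite directions and hold neither motif in them. Each runs 5′ to 3′ on the gene's strand over 120 bases, and capitals mark TTTGAA and CCAAT or their reverse complements. They are Kif11 at chr19:37376262-37376381 (+ strand), Kif22 at chr7:127042421-127042540 (- strand), Kif15 at chr9:122950961-122951080 (+ strand), Kif2c at chr4:117178773-117178892 (- strand), Kif5c at chr2:49619166-49619285 (+ strand) and Kif3c at chr12:3365012-3365131 (+ strand), all on GRCm38.p6.
Kif11: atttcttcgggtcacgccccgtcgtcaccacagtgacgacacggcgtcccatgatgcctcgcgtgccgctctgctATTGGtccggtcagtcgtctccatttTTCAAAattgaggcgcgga
Kif22: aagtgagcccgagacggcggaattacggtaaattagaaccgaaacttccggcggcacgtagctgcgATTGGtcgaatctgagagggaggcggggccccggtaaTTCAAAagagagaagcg
Kif15: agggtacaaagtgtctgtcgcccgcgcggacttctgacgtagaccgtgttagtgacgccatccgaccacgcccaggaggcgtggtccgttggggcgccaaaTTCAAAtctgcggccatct
Kif2c: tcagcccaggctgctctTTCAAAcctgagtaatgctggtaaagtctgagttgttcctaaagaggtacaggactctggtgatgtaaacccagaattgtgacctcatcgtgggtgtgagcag
Kif5c: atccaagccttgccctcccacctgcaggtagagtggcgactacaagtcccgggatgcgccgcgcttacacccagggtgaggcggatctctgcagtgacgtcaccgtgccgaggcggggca
Kif3c: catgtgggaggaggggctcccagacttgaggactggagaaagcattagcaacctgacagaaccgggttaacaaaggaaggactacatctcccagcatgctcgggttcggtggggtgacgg
Counted from the start site, the CHR core spans bases -19 to -14 in Kif11 and in Kif15, and bases -17 to -12 in Kif22, each time on the opposite strand. Kif11 and Kif22 also have a CCAAT box upstream of it, from base -45 and from base -54. In Kif2c the core lies farther out, at bases -103 to -98. The cores of Kif23, Kif18b, Kif20b and Kif4 lie after the start, beginning at base 3, 4, 8 and 20. Kif22 and Kif15 each held a further TTTGAA, from base -215 and from base -234. Within 100 bases before to 50 after the start, 7 of the 9 mitotic genes held TTTGAA. The share of all promoters with a match in that narrower stretch was not counted, so this count has no background beside it. Of the factors named above, Mybl2 rose by 4.28 ± 0.07 (3.49 as the mean of its probes) and Foxm1 by 0.56 ± 0.06. The MuvB genes Lin54 and Lin9 stood at 0.67 ± 0.04 and at 0.21 ± 0.18, where Lin9 did not pass (adjusted p 0.314). Other factors that bind the element were not surveyed, and whether any of them acts on the kinesin genes here was not tested.

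Conventional kinesin carries vesicles and mitochondria along microtubules, and 3 genes encode its heavy chain. Kif5b is the broadly expressed form, while Kif5a and Kif5c are best known from neurons. These genes held the widest differences among the transport kinesins, and they went in opposite directions. Kif5a stood at -3.59, -3.33 and -3.79 on soma 1 to 3 and at 0.74, 0.64 and 0.54 on ESC 1 to 3. The ESC arrays were all far above the soma arrays, an 18.5-fold difference (4.21 ± 0.13, adjusted p 1.02e-06), with a difference of 3.49 under normexp background correction. The second kept probe of Kif5a, annotated to another transcript and above background on 2 of 3 soma arrays, also passed, at 1.88 ± 0.31, and the mean of both probes gave 3.04.

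Kif5c stood at -2.33, -2.41 and -2.56 on soma 1 to 3 and at 0.64, 0.68 and 0.68 on ESC 1 to 3. It was 8.56-fold higher in ESC (3.10 ± 0.07, adjusted p 4.68e-07). Kif5b did the opposite. It stood at -1.16, -1.22 and -1.19 on soma 1 to 3 and at -4.38, -4.23 and -4.21 on ESC 1 to 3, so that it was 8.50-fold lower in ESC (-3.09 ± 0.06, adjusted p 3.47e-07). The lowest signals well above background on ESC 1 to 3 were at -4.93, -5.38 and -5.09, not far under these levels, and with normexp the difference was -1.96. Kif5b rests on 1 probe, whose target was not checked against sequence. Against soma 3 alone, on the shared slide, the differences of Kif5a, Kif5b and Kif5c were 4.43, -3.09 and 3.22.

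Kif5 heavy chains bind cargo through light chains and adaptors, which also went both ways. Of 16 such genes 5 were higher in ESC, 9 were lower and 2 did not pass (median -0.24). Klc3, a light chain gene, stood at -3.24, -3.02 and -2.68 on soma 1 to 3 and at 0.51, 0.61 and 0.75 on ESC 1 to 3, a 12.2-fold difference. Klc1, the main light chain gene of neurons, fell by 1.23 ± 0.05. Klc2 differed by 0.21 ± 0.06 and stood at -0.01 under spike-in scaling. Mapk8ip2, a scaffold that links cargo to kinesin, was 4.75-fold higher in ESC, while Plekhm2, which ties lysosomes to kinesin, fell by 2.32 ± 0.13 and the scaffold gene Spag9 by 1.78 ± 0.08. With normexp Mapk8ip2 differed by 1.61.

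Some neuronal markers moved with Kif5a and Kif5c, and their part in the result was not tested. Of 9 such markers tested of 12 on the array, 6 were higher in ESC and 3 were lower (median 0.70). On a log2 scale their summed level ran from 2.85 to 2.95 on the soma arrays and from 4.48 to 4.53 on the ESC arrays. Stmn2, a tubulin-binding protein gene, was at least 406-fold higher in ESC. The neurofilament gene Nefl was 106-fold higher. No soma array showed Stmn2 or Elavl3 well above background, so the fold of Stmn2 is a bound from the lowest signal that was. Map2 and Syt1 were lower in ESC, by -2.81 ± 0.11 and -2.02 ± 0.17. With normexp Nefl, Map2 and Syt1 differed by 5.30, -2.20 and -1.21.

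**Figure D3:**
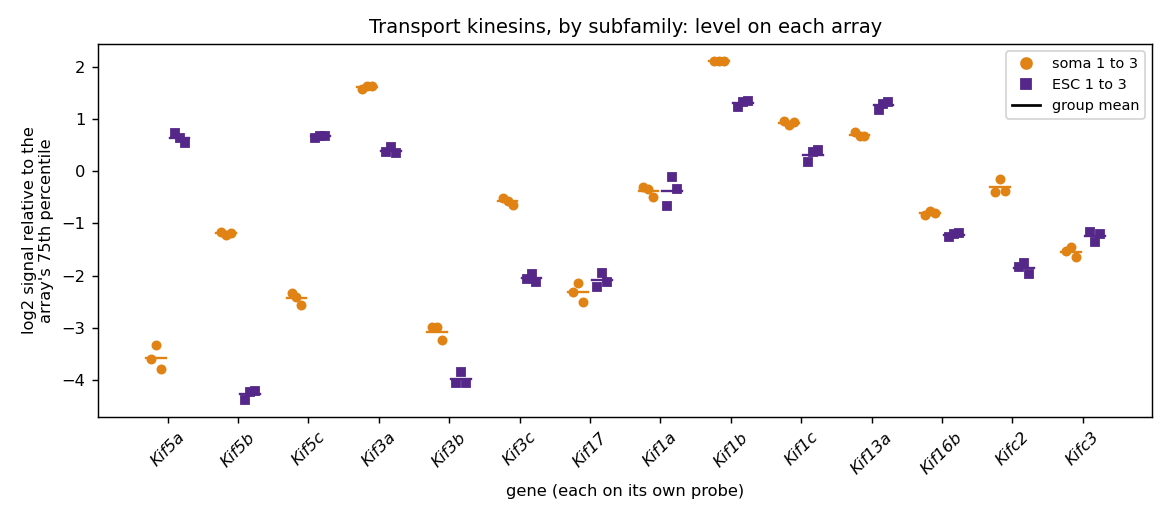
Level of each transport kinesin on each array, as log2 signal relative to the array's 75th percentile, ordered by subfamily, with circles for soma 1 to 3, squares for ESC 1 to 3 and lines for group means. Kif5a and Kif5c are high in ESC and Kif5b is high in soma, each Kif3 gene is higher in soma, and the groups overlap in Kif17 and Kif1a.

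The kinesin-2 motor joins Kif3a with Kif3b or Kif3c and drives cargo outward in cilia and axons. All 3 of these genes were lower in ESC. Kif3a stood at 1.57, 1.63 and 1.64 on soma 1 to 3 and at 0.37, 0.46 and 0.35 on ESC 1 to 3. It was 2.33-fold lower in ESC (-1.22 ± 0.05, adjusted p 3.64e-06), and its second probe gave -1.63 ± 0.10. Kif3c fell by 1.48 ± 0.06, or 2.78-fold. Kif3b fell by 0.91 ± 0.10 on a dim probe, and stood at -0.34 with normexp. The shared accessory subunit gene Kifap3 fell by 0.38 ± 0.05, and under scaling to the array median it stood at -0.18 and did not pass.

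Kif17, a kinesin-2 motor that works as a pair of like chains, stood at -2.32, -2.14 and -2.51 on soma 1 to 3 and at -2.22, -1.94 and -2.11 on ESC 1 to 3. The groups overlapped, with a difference of 0.23 ± 0.12 and a 95% interval from -0.06 to 0.52 (adjusted p 0.117). Kif17 passed as higher under quantile normalization (0.38), scaling to the array median (0.43), the slide as a block (0.42) and without soma 2 (0.32). Of 19 genes of intraflagellar transport, the ciliary process that kinesin-2 powers, 11 were lower in ESC, 4 were higher and 4 did not pass (median -0.44). Its extremes past the threshold were Wdr35 at 1.79 ± 0.07 and Ift57 at 0.99 ± 0.05 above, and Ttc30b at -1.26 ± 0.06 and Ttc21b at -1.14 ± 0.10 below.

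The kinesin-3 genes, whose motors carry vesicles and endosomes, were mostly lower in ESC. Kif1b has isoforms for mitochondria and for synaptic vesicle precursors, and its 2 probes are annotated to separate transcripts. The brighter probe fell by 0.81 ± 0.05 and the other by 2.04 ± 0.06. Kif1c, a vesicle motor, fell by 0.61 ± 0.07 on its brightest probe, while a dimmer probe stood at -0.22 and did not pass (adjusted p 0.137). Its other probe, above background on 0 ESC arrays, was at least 1.76-fold lower. Kif16b, a motor of early endosomes, fell by 0.41 ± 0.05, from -0.22 to -0.64 by scaling. Kif13a, which moves carriers out of the Golgi, was the member of this branch that rose, by 0.56 ± 0.06, or 0.34 under spike-in scaling. Kif13b was above background on 0 of the 6 arrays.

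Kif1a, the carrier of synaptic vesicle precursors, depended on the probe. On its brightest probe it stood at -0.30, -0.35 and -0.49 on soma 1 to 3 and at -0.67, -0.10 and -0.35 on ESC 1 to 3. These groups overlapped, with a difference of 0.00 ± 0.15 and a 95% interval from -0.37 to 0.38. A second Kif1a probe rose above background on all 3 ESC arrays and on 0 soma arrays, and it was at least 2.61-fold higher in ESC. An averaged value over both probes is not given, since the second has only a bound in soma.

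The minus-end motors of this class differed from each other. Kifc2, a motor of dendrites, stood at -0.39, -0.14 and -0.37 on soma 1 to 3 and at -1.84, -1.75 and -1.97 on ESC 1 to 3. It was 2.92-fold lower in ESC (-1.55 ± 0.09). Kifc3, which works at cell junctions and in apical transport, was higher by 0.30 ± 0.08 (adjusted p 0.0112), but stood at 0.08 under spike-in scaling and did not pass.

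**Figure D4:**
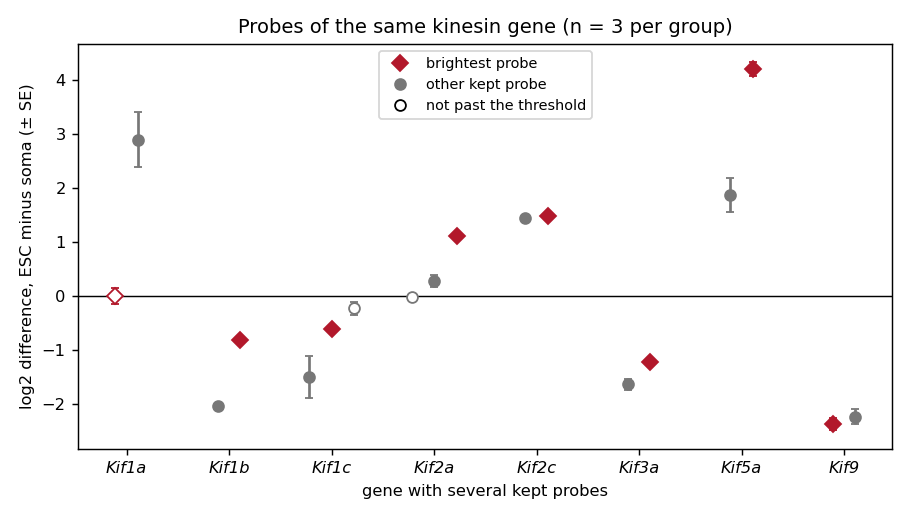
Log2 difference, ESC minus soma, with its SE for each kept probe of the 8 kinesin genes that have several (n = 3 arrays per group). Diamonds are the brightest probe of a gene and circles the others, and open points did not pass. In this plot 3 points (the second probes of Kif1a and Kif9 and the lowest of Kif1c) have 0 arrays above background in 1 group, so that their place is not a measured difference. The probes of Kif2c lie close together and those of Kif3a lie at -1.22 and -1.63, while those of Kif1b, Kif2a and Kif5a lie farther apart.

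Among the kinesins of cilia, Kif9, a motor of motile cilia and sperm flagella, had the widest difference. It stood at -2.58, -2.55 and -2.61 on soma 1 to 3 and at -4.73, -5.18 and -4.91 on ESC 1 to 3. It was 5.14-fold lower in ESC (-2.36 ± 0.12, adjusted p 6.41e-06), and a second probe, above background on 0 ESC arrays, was at least 4.51-fold lower. Its ESC levels were near background, and with normexp the difference was -1.16. Kif6, another motor of motile cilia, fell by 0.70 ± 0.10 on a probe above background on only 1 ESC array, and with normexp it stood at -0.07 and did not pass (adjusted p 0.36).

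Kif19a, which limits the length of cilia, stood at -2.39, -2.39 and -2.33 on soma 1 to 3 and at -3.74, -2.52 and -3.52 on ESC 1 to 3. ESC 2 lay close to the soma arrays, apart from the other ESC arrays. The difference of -0.89 ± 0.32 passed narrowly (adjusted p 0.039), and the call was lost when any array other than ESC 2 was left out, with differences from -0.65 to -0.90. It was also lost against soma 3 alone (-0.93), under quantile normalization (-0.72) and under scaling to the array median (-0.69). Genes of motile cilia outside the family went the other way. Of 4 tested of 8 on the array, 3 were higher in ESC, including the regulator gene Foxj1 at 2.51 ± 0.16 (1.67 with normexp). Their summed log2 level ran from -1.67 to -1.53 on the soma arrays and from -0.04 to 0.28 on the ESC arrays, and their part in the result was not tested.

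Kif7, which organises the cilium tip for Hedgehog signalling, stood at -0.97 ± 0.04 in soma and at -1.65 ± 0.06 in ESC (SD, n = 3 each), with no overlap. It was 1.61-fold lower in ESC (-0.69 ± 0.05, adjusted p 4.93e-05). Kif24, which acts at centrioles and restrains ciliation, was higher by 0.26 ± 0.07. That call was lost under spike-in scaling (0.04) and against soma 3 alone (0.18). For Kif27, a relative of Kif7, no array gave a signal well above background.

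The remaining members included the largest difference of the family. Kif26b, an atypical kinesin of developing mesenchyme and kidney, stood at 0.94, 0.93 and 0.88 on soma 1 to 3 and at -5.33, -4.45 and -4.59 on ESC 1 to 3. The gene was 52.5-fold lower in ESC (-5.71 ± 0.23, adjusted p 2.91e-06), and the difference was -4.23 with normexp. Its relative Kif26a, known from the enteric nervous system, was 3.71-fold lower (-1.89 ± 0.07). Kif26b moved with the 10 interstitial and stromal markers, whose summed log2 level ran from 8.09 to 8.33 on the soma arrays and from 3.67 to 3.88 on the ESC arrays. It moved just as much with the 10 Sertoli, 7 erythroid and 7 macrophage markers, all of them lower in ESC. The match is thus not particular to the stromal list, and the part of these markers in the result was not tested.

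Kif21b, which slows microtubule growth, was lower by -0.68 ± 0.08. Its relative Kif21a stood at -2.82, -1.88 and -3.30 on soma 1 to 3 and at -2.40, -2.08 and -2.18 on ESC 1 to 3. Here soma 2 lay above every ESC array and the other soma arrays below them. The difference of 0.45 ± 0.36 did not pass (adjusted p 0.28), but without soma 2 it was 0.84 and passed (adjusted p 0.0083), as it did against soma 3 alone, at 1.08 (adjusted p 0.00536). Kif2a, a relative of Kif2c that shortens microtubules at spindle poles and in neurons, differed by probe. Its brightest probe rose by 1.11 ± 0.07, a dim probe by 0.29 ± 0.11, and the third stood at -0.01 ± 0.05 (adjusted p 0.794). Kif2b and Kif12 gave no signal well above background.

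Of the 8 members with several kept probes, 5 had all of them past the threshold in the same direction, and none had probes past it in opposite directions. The 16 members higher in ESC became 15 when every kept probe had to pass, and the 15 lower became 14. The median SD within a group was 0.07 for mitotic kinesins and 0.09 for transport kinesins, against 0.09 for all genes tested.

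Other parts of the microtubule system were set beside the kinesins. Of 14 alpha and beta tubulin genes 12 were higher in ESC and 2 were lower (median 1.62). Tubb3, the neuronal form, stood at 4.30 ± 0.10, Tuba3a at 3.07 ± 0.20, Tubb2a at -0.75 ± 0.05 and Tuba1a at -0.21 ± 0.04 (-0.88 under quantile normalization). Tubulin genes have near-identical copies, and whether probes read several of them was not tested. Cytoplasmic dynein, the motor that runs opposite to most kinesins, and its activator dynactin went both ways. In this list of 26 genes there were 8 higher and 12 lower, with 6 not past the threshold (median -0.17). Its extremes ran from Dynll1, a light chain gene, at -3.58 ± 0.06 and Dync1i1, an intermediate chain gene, at -2.50 ± 0.22 to Dync1li1 at 1.02 ± 0.08 and Pafah1b1, a dynein regulator, at 1.03 ± 0.05. With normexp Dynll1 and Dync1i1 differed by -2.36 and -1.21, and the mean of the probes of Pafah1b1 gave 0.32.

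**Figure D5:**
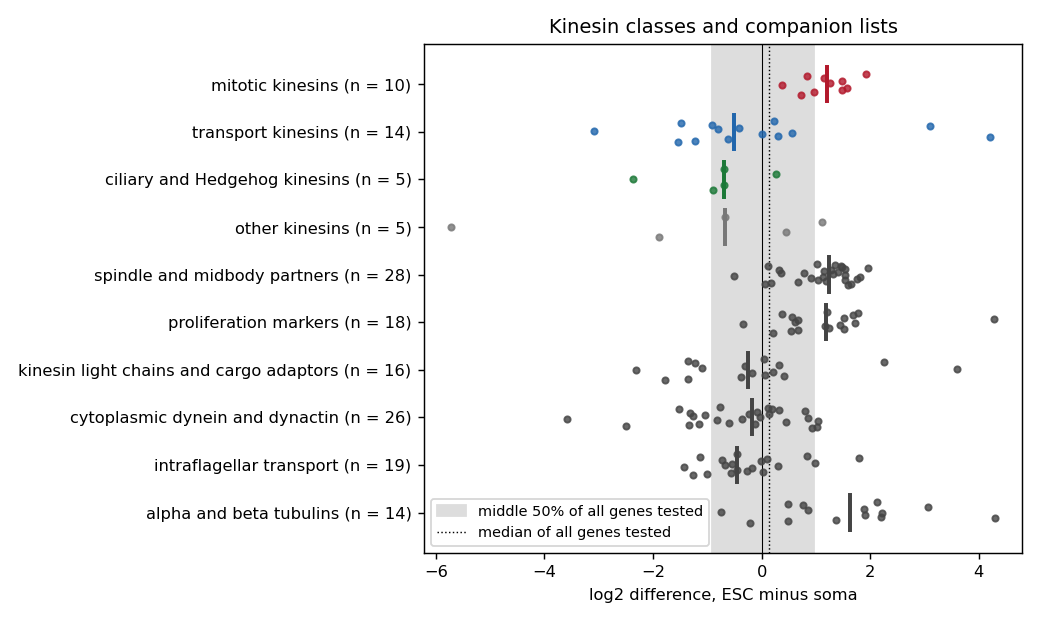
Log2 difference, ESC minus soma, of each gene tested in the 4 kinesin classes and in 6 companion lists, with a bar at each list's median and the number of genes beside its name. The grey band is the middle 50% of all genes tested, from -0.91 to 0.97. The medians of mitotic kinesins, spindle partners, proliferation markers and tubulins lie to the right of the band, and those of the other lists lie within it.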

How the data were processed

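Per the file headers, the authors read the arrays with Feature Extraction 10.7.3.1 on a grid built on mm9, and the deposited processed signal is an intensity, background-subtracted and detrended within the array. The deposited series matrix holds log2 values of unstated scale. They matched the processed signals less the array's 75th percentile and each probe's median within 0.01 for 99.97% to 99.98% of probes (column medians 0.05, -0.25, -0.07, 0.16, -0.09 and 0.06 for soma 1 to 3 and ESC 1 to 3), so the scanner values were the source.

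Log2 processed signals were scaled to the array's 75th percentile, and spots of a probe were averaged without outlier-marked spots and the 1377 control spots. A probe was kept when well above background on all arrays of at least 1 group. Of 39429 gene probes, 24153 were kept, and a gene was its brightest kept probe, for 19673 genes. A gene table of GRCm38.p6 gave a symbol to 66.1% of probes. A fold written as at least is a bound, taken against the lowest signal well above background where a group had none above it. Differences were tested with limma 3.58.1 under R 4.3.3, two-sided and with no block. The fit was tested on simulated data with known changes in a small share of the genes. Here 84.9% of genes passed, so that test gives no error rate for these data.

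The members and lists were chosen with earlier results of these data known. Every member is named, with the 2 highest and 2 lowest passing genes of each companion list and 10 fixed genes where they bear on a member. Lin54, Elavl3, Kifc5b, Ddx4, Dppa3, Nanos3 and Kit fall outside that rule and were named after their values were seen. Alternatives covered scaling, background correction, filters, probe choice, the series matrix, variance models, slide, scan and replicate blocks, and each array left out.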

Additional observations from a re-analysis of the deposited data

How the results depend on the processing

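All 10 mitotic kinesins were higher in ESC under every alternative except spike-in scaling (9, and 13 kinesins in all) and a test against a log2 difference of 1, and 8 transport kinesins were lower in all but that test and the requirement that every kept probe pass (7). In the test against a log2 difference of 1, 7 kinesins were higher and 7 lower, of which 5 mitotic kinesins were higher, 2 transport kinesins were higher and 4 lower. The mitotic median was 1.02 under quantile normalization, 1.40 under scaling to the array median and 0.98 under spike-in scaling. The transport median was -0.32 under scaling to the array median, -0.74 under spike-in scaling and -0.35 with normexp. The median of all genes tested was 0.02, 0.34 and -0.08 under these 3 scalings, 0.15 with normexp, 0.11 with the slide as a block or on the shared slide alone, and 0.21 when genes had to be above background on all 6 arrays. Relative to it the mitotic median stayed between 0.99 and 1.10 and the transport median between -0.51 and -0.73. With each array left out, the counts ran from 16 to 18 higher and 14 to 15 lower, the mitotic median from 1.17 to 1.23, the transport median from -0.54 to -0.47 and the median of all genes from 0.14 to 0.16. The share of calls that were higher in ESC was 54.9%, 61.0% under scaling to the array median and 47.4% under spike-in scaling. The sign changed for Cenpe under quantile normalization (-0.43) and for Klc2 under spike-in scaling, where Klc2 showed almost no difference (-0.01). The cause was not tested. The replicate numbers did not pair the samples (correlations of deviations -0.05, 0.07 and 0.03), and with the replicate block 16 kinesins were higher and 15 lower, with 10 mitotic kinesins higher, 4 transport kinesins higher and 8 lower, and medians of 1.20, -0.51 and 0.14. Adding Kif2a, Kif2b and Kif24 to the mitotic list gave 12 higher. Of the alternatives, the requirement that every kept probe pass was chosen after seeing the data. Levels near background limit Kif3b, Kif5b, Kif6, Kif9 and Kif26b in ESC and Kif5a in soma.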
